A study of Mus musculus with 33 samples.

Results

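The circadian clock genes measured here are 10 of the 41565 named entries of a table of mouse hypothalamic RNA-seq: *Per1*, *Per2*, *Per3*, *Cry1*, *Cry2*, *Clock*, *Nr1d1*, *Nr1d2*, *Dbp* and *Ciart*. They were picked by name, with earlier results of these data known, and each is 1 row of the table. The libraries came from the posterior hypothalamus (PH) and the preoptic area (POA) of female WT C57BL/6 mice, and the study compared ovary-intact mice with mice examined 14 days or 4 months after bilateral removal of the ovaries (OVX), a model of estrogen withdrawal. The PH had 4 intact libraries, 6 at 14 days and 6 at 4 months, and the POA had 5, 6 and 6, which makes 33 in all. All mice were wild type, and the labels list no hormone or other agent. Intact mice were killed in diestrus, the low-estrogen stage of the cycle. The OVX mice were operated at 3 to 4 months of age, so those examined 4 months later were older than the intact mice, and age and time after OVX cannot be told apart. The control libraries are titled sham in the sample labels, but their genotype label and the study's methods call them intact, and intact is used here. The labels place each library in batch 1 or batch 2 without saying what a batch was, and every group had 2 or 3 libraries in each. The mice lived in 12 hours of light and 12 hours of dark. The time of day at which tissue was collected is not given in the sources used here, nor whether it differed between groups or batches.

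Values are the deposited signal, a normalized linear measure that is not a count and from which the depth cannot be recovered, so no counting error is given. Genes without measurable expression lie near 22.1 in this table, and all 10 clock genes were at 2 times that floor or more in all 33 libraries. Differences are given as log2 fold changes from limma with the first surrogate variable (SV1, an estimated hidden factor) as covariate, with *P* values adjusted over all genes tested in a region (21991 in the PH, 21359 in the POA), and calls were made below an adjusted *P* of 0.05. Levels are not compared between genes or between regions. Replicate 5 of the PH 14-day group stood apart from the rest, with a median absolute log2 difference of 0.379 from the regional median, against at most 0.206 for any other PH library, and it was the lowest or the highest PH library for 9 of the 10 clock genes. Neuron, astrocyte, oligodendrocyte and microglia markers were above the floor in every library, and so were all 12 listed genes of the suprachiasmatic nucleus, including *Vip*, *Avp* and *Nms*. Fewer cells of a type and less RNA per cell cannot be told apart in such bulk tissue.

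The mammalian clock is a feedback loop of transcription. The proteins CLOCK and BMAL1 bind E-boxes and switch on the *Per* and *Cry* genes, whose proteins return to the nucleus and repress CLOCK and BMAL1. A second loop runs through the nuclear receptors REV-ERBα and REV-ERBβ, encoded by *Nr1d1* and *Nr1d2*, which repress the BMAL1 gene. *Dbp* is an output gene under direct CLOCK-BMAL1 control whose protein activates D-box genes, and *Ciart* (also called Chrono) encodes another repressor of CLOCK-BMAL1. The master pacemaker, the suprachiasmatic nucleus, lies in the anterior hypothalamus next to the preoptic area, and other hypothalamic cells carry clocks of their own. Because most of these transcripts cycle over the day, a single collection samples 1 phase of the cycle.

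In GRCm39 with the GENCODE M39 annotation, all 10 are protein-coding genes. *Per1* lies on chromosome 11 at 68986035 to 69002300 (plus strand), *Per2* on chromosome 1 at 91343700 to 91387069 (minus), *Per3* on chromosome 4 at 151081373 to 151129140 (minus), *Cry1* on chromosome 10 at 84967560 to 85021252 (minus) and *Cry2* on chromosome 2 at 92233894 to 92264474 (minus). *Clock* lies on chromosome 5 at 76342860 to 76452846 (minus), *Nr1d1* on chromosome 11 at 98658752 to 98666188 (minus), *Nr1d2* on chromosome 14 at 4230545 to 4266624 (plus), *Dbp* on chromosome 7 at 45354512 to 45359627 (plus) and *Ciart* on chromosome 3 at 95785815 to 95789991 (minus). Coding genes on the opposite strand overlap 4 of them: *Uts2* at *Per3*, *Tmem165* at *Clock*, *Thra* at *Nr1d1* and *Sphk2* at *Dbp*. The library kit keeps the strand, but whether the authors' counting used it is not stated, so the values of these 4 genes are less certain. Genes that are not protein-coding also overlap some of the 10. On the same strand there is 1 at *Per1*, 2 at *Clock* and 1 at *Nr1d1*. Those on the opposite strand include 2 at *Per1*, 3 at *Per2* and 1 at *Ciart*. Their part in the values is not known.

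RefSeq promoters of GRCm38.p6, each 250 bases before to 50 bases after a transcript start, were matched by symbol for 9 of the 10 genes (12 windows, all genes but *Per2*). They were searched on both strands for the E-box CACGTG, its variant CACGTT, the D-box TTANGTAA, the cAMP response element TGACGTCA and the REV-ERB and ROR element TAGGTCA. Of 32851 promoters, 7.15% held the E-box, 4.68% the variant, 2.32% the D-box, 1.79% the cAMP response element and 2.61% the REV-ERB and ROR element. *Ciart* held 3 E-boxes, 116, 58 and 44 bases upstream of its start, *Per1* held 1 at 166 bases, and *Cry1* held 1 at 60 bases with the variant at 79 bases. *Per3* held 2 D-boxes, 205 and 158 bases upstream, and *Cry2* and *Nr1d1* each held 1 variant, at 166 and 28 bases. The windows of *Clock*, *Nr1d2* and *Dbp* and the second window of *Per1* held none of these letters, which says nothing of elements outside the windows. The promoters of *Per1* and *Ciart* are shown because these genes had the smallest *P* values among the clock genes in the POA and the PH, and those of *Per3* and *Cry1* because they hold the other motifs found more than once or together. They are the strand of the gene, 5′ to 3′, with the motifs in capitals, at chr11:69098699-69098998 (plus), chr3:95882179-95882478 (minus), chr4:151044616-151044915 (minus) and chr10:85185005-85185304 (minus), in this order.
Per1: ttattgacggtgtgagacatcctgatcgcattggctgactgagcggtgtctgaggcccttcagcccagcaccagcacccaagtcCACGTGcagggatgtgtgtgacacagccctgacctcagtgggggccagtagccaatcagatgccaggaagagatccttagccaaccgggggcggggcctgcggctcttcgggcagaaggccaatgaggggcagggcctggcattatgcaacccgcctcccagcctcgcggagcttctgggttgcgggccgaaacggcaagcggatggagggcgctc
Ciart: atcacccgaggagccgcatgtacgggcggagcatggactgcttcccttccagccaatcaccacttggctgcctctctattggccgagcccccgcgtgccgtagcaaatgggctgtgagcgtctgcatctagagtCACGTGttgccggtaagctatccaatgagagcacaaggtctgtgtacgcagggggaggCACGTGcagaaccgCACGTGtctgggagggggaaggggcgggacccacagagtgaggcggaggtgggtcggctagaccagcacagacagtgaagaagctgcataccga
Per3: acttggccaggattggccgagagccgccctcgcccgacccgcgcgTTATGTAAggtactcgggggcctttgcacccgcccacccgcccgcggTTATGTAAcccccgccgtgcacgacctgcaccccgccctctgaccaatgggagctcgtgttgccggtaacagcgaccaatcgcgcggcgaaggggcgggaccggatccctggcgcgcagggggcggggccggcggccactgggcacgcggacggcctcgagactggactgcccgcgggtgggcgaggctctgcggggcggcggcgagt
Cry1: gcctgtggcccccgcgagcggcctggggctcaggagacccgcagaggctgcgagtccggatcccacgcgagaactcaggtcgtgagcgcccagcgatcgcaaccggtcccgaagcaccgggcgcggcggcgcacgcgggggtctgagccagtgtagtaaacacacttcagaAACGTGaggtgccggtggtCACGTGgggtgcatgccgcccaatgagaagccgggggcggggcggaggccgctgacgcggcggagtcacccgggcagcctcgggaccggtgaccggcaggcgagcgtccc

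None of the 10 clock genes was called in any comparison of OVX with intact mice or of 4 months with 14 days after OVX. In the PH at 14 days, 0 of 10 were called, beside 0% of all genes tested. In the PH at 4 months it was 0 of 10 beside 0.0318%, and for 4 months against 14 days 0 of 10 beside 0.00909%. In the POA it was 0 of 10 at each step, beside 0.00468% at 14 days, 0.0936% at 4 months and 0.0281% between the OVX times. With so few genes called anywhere, the clock genes' count of 0 does not set them apart from the rest. At an unadjusted *P* under 0.05, 2 of the 10 passed in the PH at 14 days (3.03% of all genes), 2 at 4 months (6.07%) and 1 between the OVX times (4.09%). In the POA 1 passed at 14 days (6.13%), 1 at 4 months (8.5%) and 0 between the OVX times (5.11%). The median log2 difference of the 10 from intact mice was -0.06 in the PH at 14 days and -0.06 at 4 months, and -0.06 and -0.05 in the POA, where the medians of all genes tested lay between -0.01 and 0. The 95% intervals of the differences lay inside a 1.5-fold change (0.59 on the log2 scale) for all 10 genes in the POA at both times and in the PH at 4 months, and for 9 of 10 in the PH at 14 days, *Ciart* being the exception. These counts hold for the fit with SV1 and were not made for other covariates. For *Per1* in the PH at 4 months, the SE was 0.13 with SV1, 0.18 with batch in its place and 0.20 without a covariate.

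**Figure D1:**
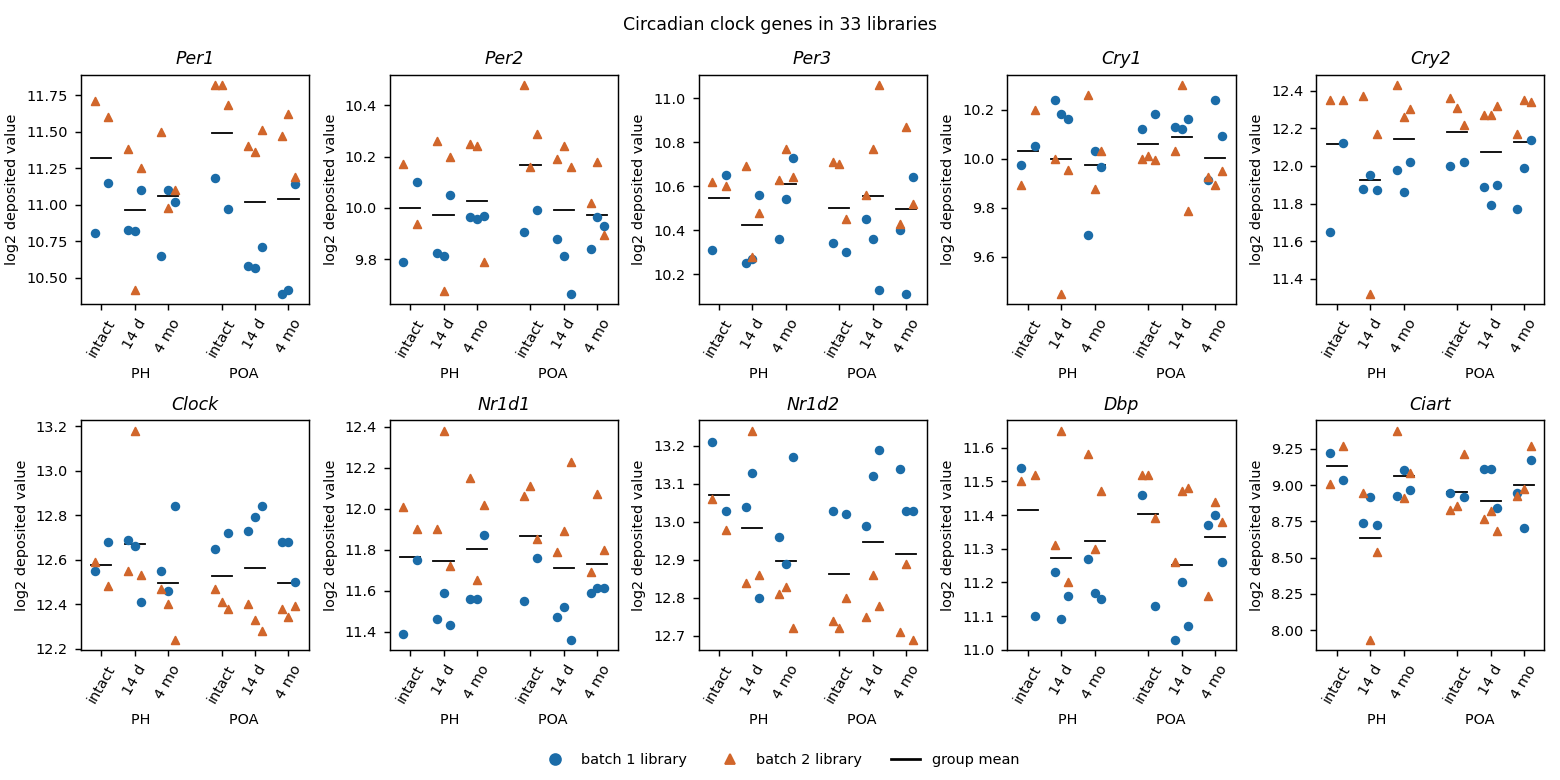
Log2 deposited signal (vertical axis, a separate scale per gene) of each of the 10 clock genes in 33 libraries, by region and group (horizontal axis), with circles for batch 1, triangles for batch 2 and a line at the group mean. Batch 2 libraries lay above batch 1 libraries for *Per1* and *Cry2* in the POA and below them for *Clock* and *Nr1d2*, and PH 14-day replicate 5 was the lowest point of its region for *Per1*, *Per2*, *Cry1*, *Cry2* and *Ciart* and the highest for *Clock*, *Nr1d1*, *Nr1d2* and *Dbp*.

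*Per1*, a repressor of the core loop whose transcription also responds acutely to light, cAMP and glucocorticoids, had the smallest *P* values of the clock genes in the POA. In batch 1 its POA signal was 2326 and 2008 in intact mice, 1526, 1517 and 1678 at 14 days, and 1342, 1371 and 2260 at 4 months. In batch 2 it was 3607, 3619 and 3290 in intact mice, 2704, 2625 and 2924 at 14 days, and 2845, 3157 and 2331 at 4 months. Within each batch, every 14-day library was thus below every intact library, and at 4 months this held in batch 2 but not in batch 1. *Per1* was the only clock gene for which 14-day and intact libraries did not overlap in either batch of the POA, a pattern that 0.95% of all genes tested showed in the same direction. The log2 difference from intact mice was -0.35 at 14 days (SE 0.10, 95% CI -0.56 to -0.14, unadjusted *P* = 0.00283, adjusted *P* = 0.732 in limma), which placed it at rank 81 of 21359 genes. At 4 months it was -0.31 (SE 0.10, 95% CI -0.53 to -0.10, unadjusted *P* = 0.00627, adjusted *P* = 0.359 in limma). The spread between batches was larger than these differences, so the result of a permutation depended on it. In a two-sided exact permutation test that exchanged libraries within batches, *P* was 0.005 at 14 days, the smallest that 200 splits allow, and 0.516 after adjustment over all genes, and at 4 months it was 0.04. With libraries exchanged freely, the exact *P* was 0.102 and 0.147. The difference between 4 months and 14 days was 0.04 (95% CI -0.17 to 0.24).

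In the PH the *Per1* signal was 1793 and 2269 in batch 1 and 3340 and 3113 in batch 2 of the intact mice. At 14 days it was 1825, 1813 and 2196 in batch 1 and 2672, 1371 and 2439 in batch 2, and at 4 months 1604, 2194 and 2079, and 2888, 2023 and 2191. Batch 2 libraries of the OVX mice all lay below the intact ones of that batch, but batch 1 libraries overlapped. The log2 difference was -0.19 at 14 days (SE 0.13, 95% CI -0.46 to 0.08) and -0.30 at 4 months (SE 0.13, 95% CI -0.57 to -0.04, unadjusted *P* = 0.0277, adjusted *P* = 0.752 in limma). The difference between the regions in the 14-day effect, POA minus PH, was -0.25 (95% CI -0.65 to 0.16), so the data did not separate the regions for *Per1*.

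*Per2* encodes the repressor closest in role to *Per1*. Its POA signal was 959.5 and 1018 in batch 1 and 1424, 1143 and 1249 in batch 2 of intact mice. At 14 days it ranged from 811.2 to 1205 (median 1043) and at 4 months from 915.8 to 1157 (median 987.4). With batches pooled the groups overlapped, but in batch 1 the 14-day libraries (811.2 to 941) lay below the intact ones. The log2 differences from intact mice were -0.13 at 14 days (95% CI -0.28 to 0.03) and -0.14 at 4 months (95% CI -0.29 to 0.02). In the PH its signal was 884.7, 1094, 1149 and 979.6 in intact mice, 818.1 to 1228 at 14 days and 884.2 to 1216 at 4 months. The log2 differences there were 0.05 (95% CI -0.17 to 0.27) and 0.01 (95% CI -0.21 to 0.23), with the groups overlapping throughout.

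*Per3*, the third *Period* gene, is regarded as dispensable for the core loop. Its PH signal was 1268, 1604, 1568 and 1557 in intact mice, 1219 to 1650 at 14 days (median 1337) and 1318 to 1745 at 4 months (median 1591). Its POA signal was 1298, 1260, 1673, 1665 and 1396 in intact mice, 1122 to 2139 at 14 days (median 1457) and 1108 to 1868 at 4 months (median 1421). With batches pooled none of the groups stood apart. In PH batch 2 the 4-month libraries (1590 to 1745) lay above the intact ones (1557 and 1568). The log2 differences from intact mice for 14 days and 4 months were -0.07 and 0.05 (PH), then 0.12 and 0.07 (POA). Their intervals ran from -0.27 to 0.32 at the widest.

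The cryptochromes *Cry1* and *Cry2* encode the partners of the PER proteins and the stronger repressors of CLOCK-BMAL1. *Cry1* signal ranged in the PH from 950.7 to 1180 in intact mice, from 698.3 to 1209 at 14 days and from 824.9 to 1228 at 4 months, and in the POA from 1021 to 1156, from 882.2 to 1258 and from 949.8 to 1211. *Cry2* signal ranged in the PH from 3225 to 5232 in intact mice, from 2555 to 5281 at 14 days and from 3726 to 5524 at 4 months, and in the POA from 4102 to 5270, from 3547 to 5112 and from 3487 to 5230. The 14-day minimum in the PH was replicate 5 for both genes, and with batches pooled the ranges of the groups overlapped in every case. Within single batches some did not overlap, a pattern for which no share over all genes was counted. *Cry1* in PH batch 1 was 1145 to 1209 at 14 days, against 1006 to 1059 in intact mice. In POA batch 2 it was 949.8 to 987.5 at 4 months, against 1021 to 1031. *Cry2* in POA batch 1 was 3547 to 3821 at 14 days, against 4102 to 4141. The log2 differences from intact mice for *Cry1* were 0.05 (14 days) and -0.08 (4 months) in the PH, against 0.01 and -0.08 in the POA. For *Cry2* they were -0.03 and -0.02 in the PH, against -0.05 and 0.01 in the POA, with the POA intervals of -0.16 to 0.06 and -0.09 to 0.12 among the narrower ones.

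*Clock* encodes one of the activators of the loop, and its partner *Bmal1* is listed in the table as *Arntl*. *Clock* signal in the PH was 6008 and 6541 in batch 1 and 6154 and 5705 in batch 2 of intact mice, 6626, 6486 and 5434 and then 6010, 9254 and 5918 at 14 days, and 6010, 5652 and 7320 and then 5691, 5410 and 4837 at 4 months. The value of 9254 belonged to replicate 5. In the POA the signal was 6429 and 6739 in batch 1 and 5673, 5440 and 5321 in batch 2 of intact mice, with 6800, 7072 and 7318 and then 5404, 5158 and 4990 at 14 days, and 6583, 6578 and 5800 and then 5336, 5196 and 5378 at 4 months. All 8 POA libraries of batch 1 were above all 9 of batch 2, whereas the groups overlapped with batches pooled. In POA batch 1 the 14-day libraries lay above the intact ones. In PH batch 2 the 4-month libraries lay below them. The log2 differences were -0.01 (95% CI -0.18 to 0.16) and -0.05 (95% CI -0.21 to 0.11) in the PH, against -0.02 (95% CI -0.11 to 0.08) and -0.09 (95% CI -0.18 to 0.0045) in the POA, at 14 days and 4 months. Once groups and batches were taken out, *Clock* had an SD of 0.0622 on the log2 scale in the POA, lower than that of all but 1.62% of genes, whose median SD was 0.173. In the PH, with replicate 5, its SD was 0.209, lower than that of all but 34.1% of genes. *Arntl* differed from intact mice by 0.14 (14 days) and 0.02 (4 months) in the PH, against 0.10 and -0.04 in the POA, and was not called.

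*Nr1d1* and *Nr1d2* encode the REV-ERB receptors, which repress *Bmal1* and have short, high daily peaks. The PH signal of *Nr1d2* was 9444 and 8387 in batch 1 and 8521 and 8056 in batch 2 of intact mice. At 14 days it was 8418, 8992 and 7113 in batch 1 and 7348, 9694 and 7418 in batch 2, and at 4 months 7995, 7595 and 9231, and 7182, 7279 and 6729. In batch 2, every library at 4 months was below the intact ones, whereas in batch 1 they overlapped, and at 14 days replicate 5 was the highest of all. The log2 differences were -0.16 at 14 days (SE 0.07, 95% CI -0.31 to -0.02, unadjusted *P* = 0.0319, adjusted *P* = 1 in limma) and -0.15 at 4 months (SE 0.07, 95% CI -0.29 to -0.01, unadjusted *P* = 0.0397, adjusted *P* = 0.796 in limma). In the POA the corresponding values were 0.03 (95% CI -0.07 to 0.14) and -0.0023 (95% CI -0.10 to 0.10), and its signal ranged from 6738 to 8390 in intact mice, 6899 to 9322 at 14 days and 6622 to 9056 at 4 months. *Nr1d1* signal ranged in the PH from 2687 to 4115 in intact mice, 2765 to 5315 at 14 days and 3015 to 4542 at 4 months, and in the POA from 2991 to 4431, 2621 to 4808 and 3075 to 4295. In POA batch 1 the 14-day libraries of *Nr1d1* (2621 to 2930) lay below the intact ones (2991 and 3461). Its log2 differences were -0.04 and 0.05 in the PH, with wide intervals of -0.43 to 0.34 and -0.32 to 0.42, and -0.09 and -0.06 in the POA.

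*Dbp*, whose transcript follows CLOCK-BMAL1 activity closely, had a PH signal of 2967 and 2200 in batch 1 and 2905 and 2928 in batch 2 of intact mice. It was 2399, 2183 and 2293 and then 2536, 3218 and 2347 at 14 days, and 2475, 2301 and 2272 and then 3068, 2527 and 2830 at 4 months. The highest value was replicate 5, and 1 intact library lay near the lowest of the OVX libraries. The log2 difference was -0.17 at 14 days (95% CI -0.41 to 0.08) and -0.08 at 4 months (95% CI -0.32 to 0.15). Without replicate 5 the 14-day value was -0.21 (95% CI -0.40 to -0.01, unadjusted *P* = 0.0363, adjusted *P* = 0.9999 in limma). In the POA its signal was 2815, 2238, 2934, 2929 and 2692 in intact mice, 2098 to 2861 at 14 days and 2286 to 2778 at 4 months, and its log2 differences were -0.12 (95% CI -0.28 to 0.03) and -0.04 (95% CI -0.20 to 0.12).

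*Ciart*, the repressor gene with 3 E-boxes in the promoter printed above, had the smallest *P* value of the clock genes in the PH. Its PH signal was 596.5 and 524.8 in batch 1 and 513.6 and 617.2 in batch 2 of intact mice, and 426.8, 482.9 and 423.9 and then 493.8, 244.6 and 371.7 at 14 days. Every 14-day library was therefore below every intact library, within and across batches. At 4 months it was 485.5, 549.9 and 500.7 in batch 1 and 663.7, 481.5 and 543.5 in batch 2, which overlapped with the intact libraries. *Ciart* was the only clock gene lower without overlap in both PH batches at 14 days, as were 0.837% of all genes tested. That share is for separation within each batch, and the share of genes separated across batches as well was not counted. The log2 difference at 14 days was -0.39 (SE 0.13, 95% CI -0.67 to -0.12, unadjusted *P* = 0.00723, adjusted *P* = 1 in limma), rank 67 of 21991 genes. Without replicate 5, the value of 244.6, it was -0.36 (SE 0.11, unadjusted *P* = 0.00586, adjusted *P* = 0.9999 in limma). The two-sided exact permutation *P* was 0.019 with free exchange of libraries and 0.04 within batches, where 0.01 is the smallest that 100 splits allow. At 4 months the difference from intact mice was -0.10 (95% CI -0.37 to 0.16), and 4 months minus 14 days was 0.29 (SE 0.12, 95% CI 0.04 to 0.54, unadjusted *P* = 0.0255, adjusted *P* = 0.9995 in limma). These comparisons share the 14-day libraries. In the POA *Ciart* signal was 493.8, 483.7, 454.6, 462.4 and 594.6 in intact mice, 411.3 to 553.8 at 14 days and 417.5 to 617.3 at 4 months, and its log2 differences were -0.07 (95% CI -0.30 to 0.16) and 0.04 (95% CI -0.19 to 0.27). In POA batch 2 the 14-day libraries (411.3 to 451.7) lay below the intact ones (454.6 to 594.6).

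**Figure D2:**
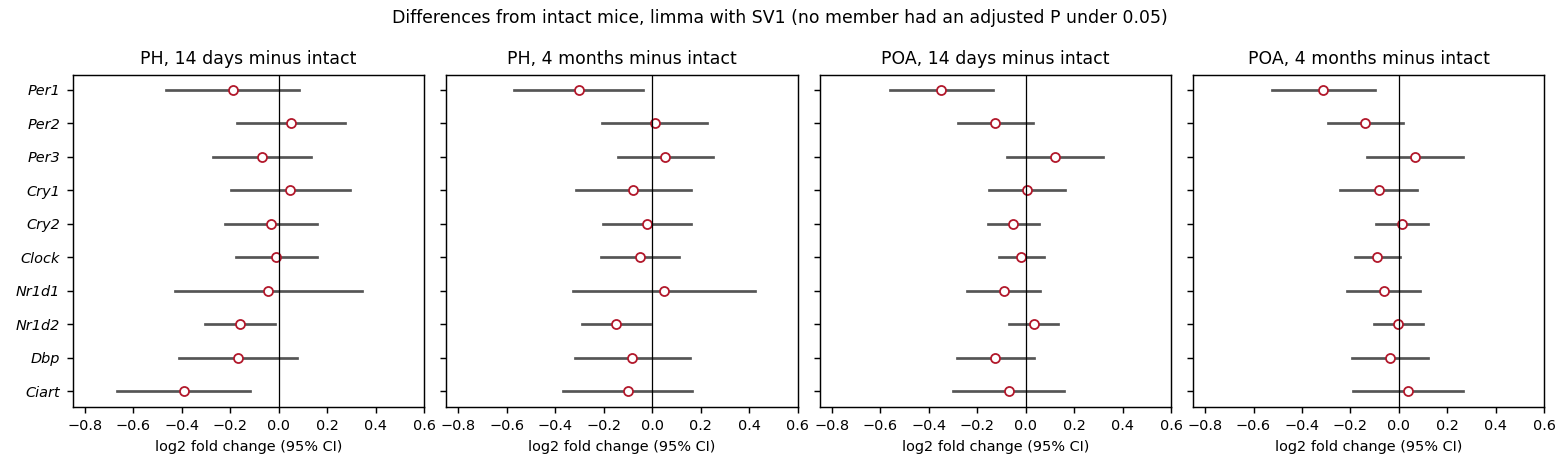
Log2 fold changes from intact mice (horizontal axis, points with 95% confidence intervals from limma with SV1) of the 10 clock genes (vertical axis) in 4 panels, 1 for each region and time after OVX. All points are open because no adjusted *P* was under 0.05, and most intervals crossed 0, apart from *Ciart* and *Nr1d2* in the PH at 14 days, *Per1* and *Nr1d2* in the PH at 4 months and *Per1* in the POA at both times.

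To ask whether the response differed between the regions, the effect in the POA minus that in the PH was fitted over all 33 libraries and 22135 genes. The study took both regions from the same females, but the labels do not tie libraries to a mouse, so the fit treats all libraries as independent. Of the clock genes, 0 of 10 were called at 14 days beside 0.00452% of all genes, and 0 of 10 at 4 months beside 0.00904%. The 14-day difference was 0.41 for *Ciart* (SE 0.18, 95% CI 0.03 to 0.78, unadjusted *P* = 0.0335, adjusted *P* = 0.9999 in limma) and 0.22 for *Nr1d2* (SE 0.08, 95% CI 0.06 to 0.38, unadjusted *P* = 0.00946, adjusted *P* = 0.9999 in limma). These 2 of 10 genes had an unadjusted *P* under 0.05, beside 2.99% of all genes, and in both cases the estimate in the PH was the lower one. At 4 months 0 of 10 reached that level, beside 3.6%.

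Several clock genes differed more between batches than between groups. In the POA, 7 of the 10 differed between batches at an adjusted *P* under 0.05 in a fit of groups and batch, beside 39.7% of all genes tested. *Per1* was higher in batch 2, by 0.76 on the log2 scale (SE 0.09, adjusted *P* = 1.88e-06 in limma). Its signal was 1342 to 2326 in the 8 libraries of batch 1 and 2331 to 3619 in the 9 of batch 2, without overlap. *Nr1d1* (0.38), *Cry2* (0.35), *Per3* (0.34) and *Per2* (0.29) were higher in batch 2 as well, whereas *Clock* (-0.32) and *Nr1d2* (-0.30) were lower. This made 5 of 10 genes higher, beside 20% of all genes, and 2 of 10 lower, beside 19.7%. Batches did not overlap for *Per1* and *Cry2*, which were higher in batch 2, and for *Clock* and *Nr1d2*, which were lower, so 4 of 10 genes had separate batches beside 12.7% of all genes. *Cry2* signal was 3487 to 4523 in batch 1 and 4609 to 5270 in batch 2. *Clock* signal was 5800 to 7318 in batch 1 and 4990 to 5673 in batch 2, and that of *Nr1d2* 8117 to 9322 and 6622 to 7591. *Cry1* (-0.13), *Dbp* (0.15) and *Ciart* (-0.04) were not called. The batches therefore did not move the clock genes in a single direction, and the activator *Clock* and the repressor *Per1* differed in opposite directions.

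In the PH 0 of 10 clock genes were called between batches, beside 1.28% of all genes, and 0 of 10 separated without overlap, beside 0.546%. *Nr1d1* came closest to a call (0.39, SE 0.10, adjusted *P* = 0.0654 in limma). Without PH 14-day replicate 5, a batch 2 library, 3 of 10 were called, beside 24.3% of all genes, and all 3 were higher in batch 2, as were 13.3% of all genes. *Per1* was then higher in batch 2 by 0.42 (adjusted *P* = 0.00381 in limma), *Cry2* by 0.40 (adjusted *P* = 0.000332) and *Nr1d1* by 0.32 (adjusted *P* = 0.00695). Among these 15 libraries only *Cry2* separated without overlap, at 3225 to 4448 for batch 1 against 4604 to 5524 for batch 2, beside 6.87% of all genes. *Clock* (-0.14) and *Nr1d2* (-0.16) were again lower in batch 2 by their estimates, but not called. This comparison was added after the batches were seen to separate the libraries, and what the batches were is not given in the labels.

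**Figure D3:**
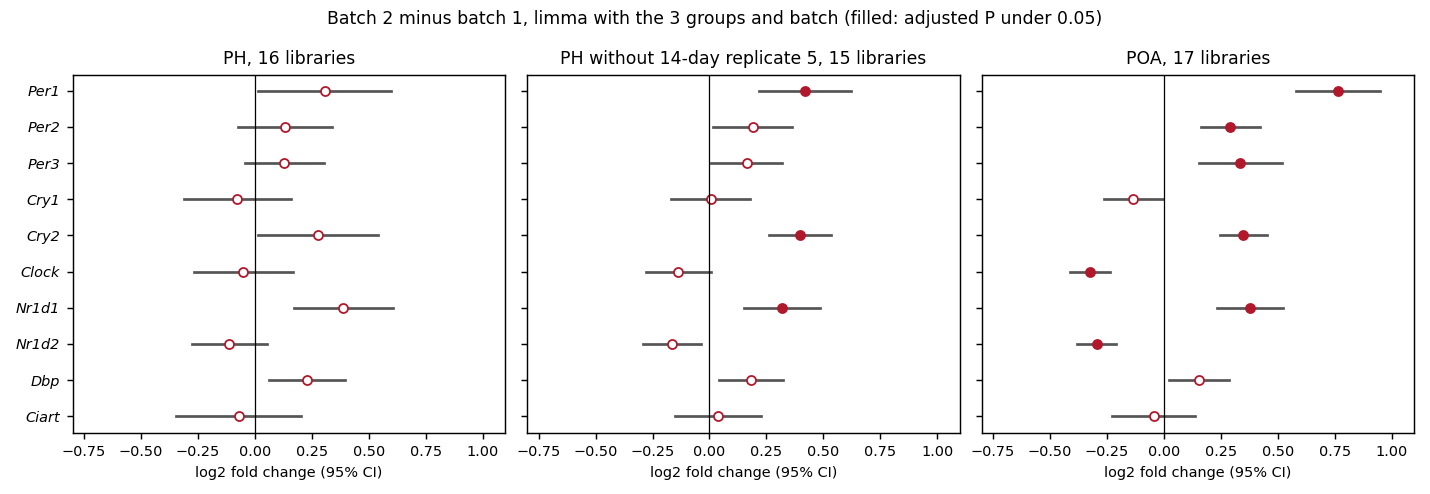
Log2 fold changes of batch 2 over batch 1 (horizontal axis, points with 95% confidence intervals from limma with groups and batch) of the 10 clock genes (vertical axis) in the PH, in the PH without 14-day replicate 5 and in the POA. Filled points have an adjusted *P* under 0.05, which are 0 of 10, 3 of 10 and 7 of 10 genes, and *Per1* in the POA lies farthest from 0 at 0.76.

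The clock genes were next set against each other over the libraries of 1 region, after the mean of each group and batch had been taken out. The libraries share dissection and normalization, and the correlations are given as a description. In the POA (17 libraries) 26 of 45 pairs of clock genes were positively correlated, with Pearson's r from -0.67 to 0.75. In the PH without replicate 5 (15 libraries) 31 of 45 were positive, with r from -0.57 to 0.78, and with that library 21 of 45 were. The highest pairs were *Per3* and *Nr1d1* (0.75) and *Per1* and *Cry2* (0.61) in the POA, and *Clock* and *Nr1d2* (0.78) and *Cry2* and *Nr1d1* (0.77) in the PH without replicate 5. With it, *Clock* and *Nr1d2* were at 0.88, but *Cry2* and *Nr1d1* at -0.30. *Per1* and *Per3* ran together in both regions, at 0.56 in the POA and 0.57 in the PH (0.68 with replicate 5). *Clock* ran opposite to *Per1* (-0.67) and *Per3* (-0.66) in the POA. In the PH these values turned on replicate 5, at -0.55 and -0.30 over all 16 libraries and 0.11 and 0.13 without it, so no contrast between the regions is drawn.

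**Figure D4:**
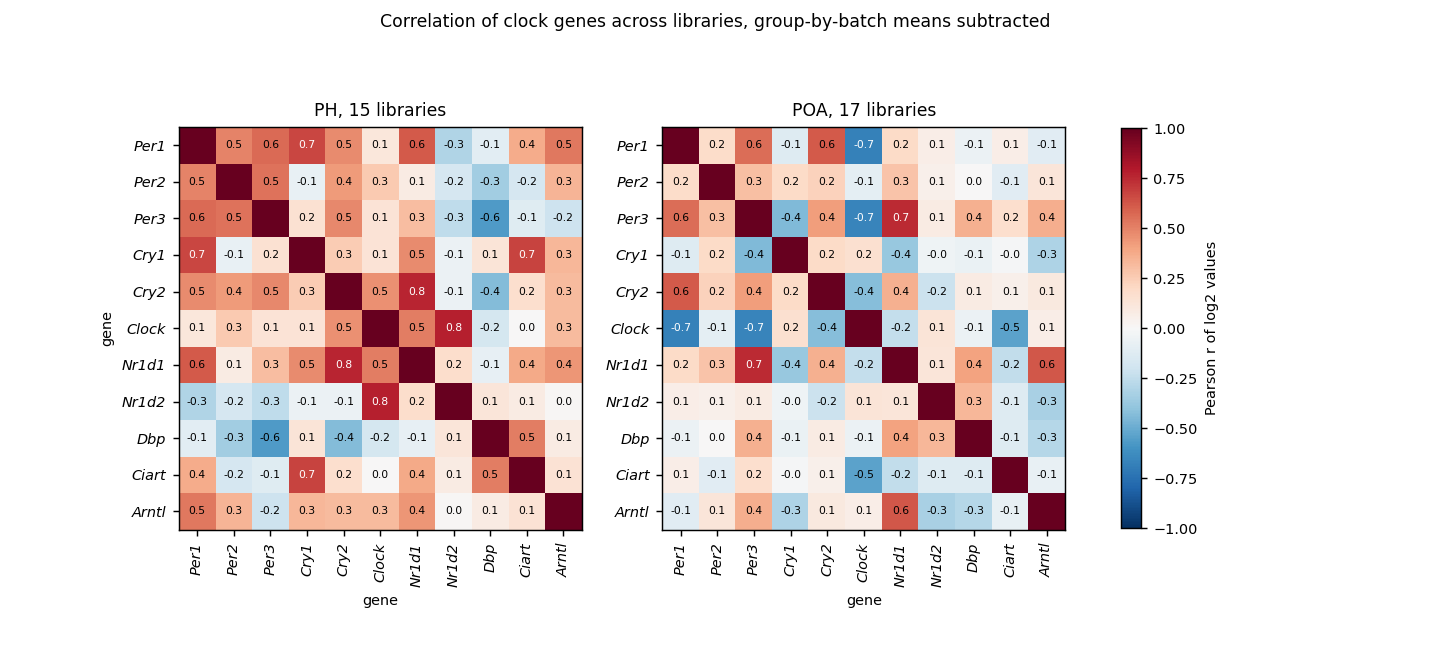
Pearson's r (colour and printed number) between the log2 signals of the 10 clock genes and *Arntl* (rows and columns), with group-by-batch means subtracted, in the PH without 14-day replicate 5 (15 libraries) and in the POA (17 libraries). The correlation of *Clock* with *Per1* is -0.67 in the POA, and in the PH it is 0.11 here but -0.55 when replicate 5 is included.

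*Dbp* was taken as the reference output of the clock, and the other 9 genes were correlated with it within each batch, since the batches form separate clusters. Group means were not subtracted for these values, so differences between groups are part of them. With group-by-batch means subtracted, 5 of 9 were positive in the POA, with *Nr1d1* at 0.40, and 3 of 9 in the PH, with *Nr1d1* at 0.36. In the POA, 4 of 9 correlations were positive in batch 1 (8 libraries, r from -0.48 to 0.37) and 7 of 9 in batch 2 (9 libraries, r from -0.16 to 0.83). *Nr1d1* was the gene closest to *Dbp* in POA batch 2 (0.83), at 0.33 in batch 1. In the PH, 2 of 9 were positive in batch 1 (8 libraries, r from -0.80 to 0.47) and 3 of 9 in batch 2 (8 libraries, r from -0.59 to 0.88), and *Nr1d1* was at -0.58 and 0.88. The value of 0.88 includes replicate 5, the highest library of the region for both genes.

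The genes most like the clock genes were sought over 33 libraries and 21205 genes, by the mean r with *Per1*, *Per2*, *Per3*, *Nr1d1*, *Nr1d2*, *Dbp* and *Ciart* after region-by-group means were subtracted. The highest were *Dctn1* (0.41), *Rfng* (0.41), *Nisch* (0.41), *Map4k2* (0.41) and *Rnf44* (0.41), and the lowest *Rps3a1* (-0.41), *Glrx3* (-0.41), *Atp5c1* (-0.41), *Ndufv2* (-0.41) and *Nt5c3* (-0.40). When batch means were subtracted as well, the highest were *Ttc13* (0.35), *Cpeb1* (0.34), *Dctn1* (0.34), *Csnk1e* (0.34) and *Hcn4* (0.33), and of these *Dctn1* was on the first list too. *Csnk1e* encodes a casein kinase that phosphorylates PER proteins. The search included PH 14-day replicate 5 and was not repeated without it. With batch means subtracted as well, leaving that library out moved r of *Per1* and *Nr1d1* over both regions from -0.06 to 0.39. The reference genes did not share 1 pattern. After region-by-group means were subtracted, r of *Nr1d2* with the other reference genes ran from -0.77 (*Per1*) to -0.18 (*Dbp*). For *Ciart* it ran from -0.36 (*Nr1d1*) to 0.20 (*Per1*), whereas *Per1* and *Per3* were at 0.76. The mean r of a reference gene includes its correlation with itself and is therefore not given. The clock genes outside the reference set, *Cry1*, *Cry2* and *Clock*, had mean r of -0.05, 0.34 and -0.25 on the first measure, and of 0.08, 0.18 and -0.03 once batch means were subtracted.

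The wider clock was looked at with lists of other genes. Of 10 other clock transcription factors (among them *Arntl*, *Npas2*, *Nfil3*, *Bhlhe40*, *Bhlhe41*, *Tef*, *Hlf* and *Rora*), 0 were called in any of the 6 comparisons of groups, and this was also so for 11 regulators of clock proteins, such as the casein kinases and F-box proteins, and for 12 genes of the suprachiasmatic nucleus. The median log2 difference of the 10 other transcription factors from intact mice was 0.01 at 14 days in the PH, -0.000665 at 4 months, and 0.03 and 0.01 in the POA. In the POA at 14 days *Tef* differed from intact mice by -0.07 (SE 0.05), *Nfil3*, which opposes *Dbp* at D-boxes, by -0.07 (SE 0.09), *Avp* by 0.39 (SE 0.31) and *Vip* by 0.05 (SE 0.29). Between POA batches, 4 of the 10 other transcription factors and 4 of the 11 regulators were called, beside the 39.7% of all genes, including *Tef* (0.13) and *Bhlhe41* (-0.18). *Avp*, a neuropeptide of the suprachiasmatic nucleus and of other hypothalamic neurons, was higher in POA batch 2 by 1.44 (SE 0.29, adjusted *P* = 0.00108 in limma), and it was the only suprachiasmatic gene called there.

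Because *Per1* also responds to stress hormones and neuronal activity, lists of glucocorticoid-induced and immediate early genes were read beside it. *Sgk1*, a glucocorticoid-induced kinase, differed from intact mice at 14 days by -0.85 in the POA (SE 0.29, adjusted *P* = 0.80 in limma) and -0.84 in the PH (SE 0.23, adjusted *P* = 1 in limma), neither of which was called. *Fkbp5* (-0.18, SE 0.11) and *Tsc22d3* (-0.10, SE 0.09) were not called in the POA at 14 days either. At 4 months in the POA, the immediate early genes *Btg2* (0.89), *Npas4* (0.74) and *Dusp1* (0.68) rose relative to intact mice, with adjusted *P* values of 0.00192, 0.0429 and 0.00265 in limma, and *Depp1*, a FOXO target placed in the glucocorticoid list, rose by 0.84 (adjusted *P* = 0.0429). *Per1* was at -0.31 in the same comparison, and *Fos* at 0.24 (SE 0.22). Of 12 immediate early genes, 3 were called there, and of 12 glucocorticoid-induced genes 1, beside 0.0936% of all genes tested. At 14 days in the POA, where *Per1* was at -0.35, 0 of either list were called, but 11 of 12 immediate early genes had a negative estimate (median -0.26, 5 with an unadjusted *P* under 0.05), as did 10 of 12 glucocorticoid-induced genes (median -0.17, 1 with an unadjusted *P* under 0.05). The median of all genes tested was -0.01. In the PH at 14 days, 8 of 12 and 11 of 12 were negative (medians -0.06 and -0.15). The part of these genes in the values of *Per1* was not tested.

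Markers of cell types were read across the groups as well. In the POA the microglial gene *C1qa* rose at 4 months (0.43, adjusted *P* = 0.0429 in limma), the 1 of 7 microglial markers called. The summed signal of the 8 neuron markers was 189000 to 213000 in intact mice, 158000 to 225000 at 14 days and 187000 to 215000 at 4 months in the POA. In the PH it was 200000 to 211000, 177000 to 321000 and 176000 to 222000. The 6 pituitary genes summed to 362 to 2090 in intact mice, 458 to 10700 at 14 days and 293 to 554 at 4 months in the POA, and 4 of the 6 were at the floor in at least 1 library of each group. Of the 8 neuron, 7 astrocyte, 7 oligodendrocyte, 7 endothelial, 7 thalamus and 5 tested pituitary genes, 0 were called in the 6 comparisons of groups. Several lists nevertheless had estimates of 1 sign against intact mice. All 7 oligodendrocyte markers were negative at 14 days in the PH (median -0.09) and in the POA (median -0.16, 3 with an unadjusted *P* under 0.05). All 7 microglial markers were positive in both regions at both times, with medians of 0.09 and 0.18 (PH), then 0.15 and 0.14 (POA). All 7 endothelial markers were positive in the PH at both times, with medians of 0.26 and 0.23. The 5 tested pituitary genes were positive in the POA at 14 days (median 2.26, 4 with an unadjusted *P* under 0.05). The part of these markers in the differences of the clock genes was not tested.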

How the data were processed

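RNA of 33 PH and POA libraries was measured by poly(A), strand-specific RNA-seq. The authors pseudoaligned reads with kallisto (mm39), collapsed transcripts to genes with tximport and applied DESeq2 normalization, and the deposited values are a normalized signal on a linear scale whose last processing step is not given in the sources used here. Depth is unknown. The values are not counts, so they were taken to log2 without a pseudocount and tested with limma 3.58.1 (R 4.3.3, moderated statistics with trend and robust estimates) with terms for group and SV1 within each region, where SV1 was estimated in base R by iteratively reweighted surrogate variable analysis with 5 rounds. Unnamed entries (1259) were dropped. Testing required a value of 2 times the floor of 22.1 in at least 4 PH or 5 POA libraries, and the Benjamini-Hochberg adjustment covered all genes tested. Differences between regions were fitted as an interaction. Single genes were also tested by two-sided exact permutation. Correlations used 100000 permutations, of which no adjusted *P* for a clock gene was under 0.05. Nothing says whether libraries of a group came from separate mice, so *P* values measure the spread between libraries only. The highest correlation between 2 libraries was 0.994, and none were identical. The fits were tested on simulated data whose hidden factor was the batch. In the PH, SV1 mostly marked 14-day replicate 5 (0.79), so the simulated setting differs from the PH data.

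Genes are those of the named list, other clock, suprachiasmatic, glucocorticoid, immediate early and cell marker lists, those called in them, and those with the most similar pattern. The members and lists were chosen with earlier results of these data known. The comparison of batches, the exact permutation within batches, and the correlations with group-by-batch means subtracted were added after seeing the data. Equal replicate numbers were not used as pairs, because the number is not said to mark a shared mouse, litter or day, although the PH and POA came from the same females. Of 30 pairs of same-numbered libraries in 2 groups of a region, 23 had deviations correlated above 0.1 (range -0.308 to 0.391), and of 16 PH and POA pairs with the same group and number 14 did (range -0.33 to 0.452). The deviations were from group means with batch left in, so libraries of the same batch share it. Pairs from different batches were at -0.0452 and -0.109 in the PH and at -0.263 and -0.308 in the POA. Other tools were Python 3.11.15, numpy 2.4.6, scipy 1.17.1, pandas 2.3.3 and matplotlib 3.10.9.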

Additional observations from a re-analysis of the deposited data

Results flagged for a closer look

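In groups of 4 to 6 libraries, single values that stood apart from the rest of their group were looked for in 60 groups of libraries (10 clock genes in 6 groups), where chance marks about 1 in 20. There were 4, all in the PH. *Clock* signal in PH 14-day replicate 5 was 9254, against 5434 to 6626 in the other libraries of the group, and *Cry1* signal in the same library was 698.3, against 990.8 to 1209. This is the library that stood apart over all genes. *Dbp* signal in PH intact replicate 2 was 2200, against 2905 to 2967 in the other 3 intact libraries, and *Per3* signal in PH intact replicate 1 was 1268, against 1557 to 1604. Both of these intact libraries were of batch 1.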

How the results depend on the processing

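The count of clock genes called was 0 in all 6 comparisons of groups under every alternative run: no covariate, batch instead of SV1, SV1 with batch, SV1 over all libraries, the shared floor component with batch, the replicate block, only the 2 groups compared, single batches, no filter, 100 added before log2, library medians centred, an added 1.5-fold minimum, exact permutation, and each library left out in turn. For both differences between regions it was also 0 under the alternatives run there, namely batch instead of SV1, no covariate, SV1 with batch, the replicate block, no filter, 100 added and each library left out. The smallest adjusted *P* of a clock gene under any of these was 0.163, in limma, for the POA at 4 months. Some of these alternatives could hardly have given another count. An added 1.5-fold minimum can only lower a count. The smallest *P* that the exact permutation allows was between 0.0022 and 0.01, depending on the comparison. After adjustment over all genes, a call there would have needed very many genes at that value. With the replicate number as a block, the count was 0 throughout, and *Per1* in the POA was -0.36 at 14 days and -0.33 at 4 months. The 14-day differences between regions were 0.22 for *Nr1d2* (unadjusted *P* = 0.00715) and 0.41 for *Ciart* (unadjusted *P* = 0.0232) with that block, in limma. No sign changed among the single values given an alternative: *Per1* in the POA stayed between -0.47 and -0.31 at 14 days and between -0.46 and -0.25 at 4 months, and *Ciart* in the PH between -0.66 and -0.29 at 14 days. *Nr1d2* in the PH ranged from -0.20 to -0.04 at 14 days, and *Per1* in the PH at 4 months from -0.46 to -0.06. PH SV1 was 0.79 in 14-day replicate 5 and -0.31 to 0.19 in the other libraries, so it mostly marked that library. With batch in place of SV1, the unadjusted *P* in limma was 0.42 for *Nr1d2* at 14 days and 0.165 for *Per1* at 4 months. Without a covariate it was 0.45 and 0.21. Leaving replicate 5 out and keeping SV1, it was 0.0352 and 0.012. For *Ciart* at 14 days it was 0.0086 with batch and 0.0076 without a covariate. Other alternatives gave *Ciart* a larger unadjusted *P* in limma. It was 0.055 without PH intact replicate 1 (estimate -0.29) and 0.052 in batch 2 alone (estimate -0.66).

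The comparison of batches was less stable. With SV1 and batch together, 2 clock genes were called in the PH in place of 0, and 0 in the POA in place of 7, where SV1 itself separates the batches (0.19 to 0.35 in batch 1, -0.32 to -0.12 in batch 2). Leaving out single libraries gave 0 to 3 called genes in the PH, with 3 without 14-day replicate 5 and 1 without 4-month replicate 5, and 7 to 8 in the POA. The number of clock genes positively correlated with *Dbp* in the PH, 4 over all 16 libraries, was 2 within batch 1, and 4 to 7 when single libraries were left out, with 7 without 14-day replicate 5. The cause was not tested. The unknown depth and the floor in every value limit what can be said of small differences.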
